A study of Rattus norvegicus with 12 samples.

Results

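Motile cilia are the beating projections of the multiciliated cells that line the airways. The motile cilium genes were taken as all rows of the expression table whose symbol is Cfap, Dnah, Dnai, Tekt or Drc followed by a number, starts with Rsph, or is Foxj1, Sntn, Ubxn10 or Hydin. Of the 19230 rows, 63 carried such a symbol, and the 61 whose signal averaged 1 or more over the 12 libraries are described here. Of the other two, Cfap58 was at 0 in all 12 libraries, and Rsph4a was above 0 in 2 libraries, at 0.774 in an Ahr-KO SuHx library and 0.767 in a normoxia lung library. The 61 rows hold 57 member symbols, because Cfap52, Cfap53, Cfap99 and Dnah8 each occur in 2 rows. In 8 rows the symbol stands together with another symbol. In the row Rsph14,Rtdr1 this is a former name of the same gene. The rest join another gene, as in Adprhl2,Tekt2, and reads of the 2 genes cannot be told apart there.

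The shaft of a motile cilium, the axoneme, is a ring of microtubule doublets around a central pair of single microtubules. Dynein arms on the doublets make them slide and so bend the cilium. The nexin-dynein regulatory complex ties neighbouring doublets together, radial spokes connect them with the central pair, and tektins and other proteins line the inside of the doublet wall. The programme for multiciliated cells runs from Gmnc and Mcidas, which start it, through Ccno and Deup1, which serve the amplification of centrioles, to Foxj1 and the Rfx factors, which turn on genes of the axoneme. By role the set held 13 dynein heavy chain rows, 2 intermediate chains, 3 rows of the nexin-dynein regulatory complex, 6 radial spoke rows, 8 of the central pair, 5 tektins, 8 of the doublet's inner proteins, 7 of the tether and spoke base, 6 other Cfap rows, and Foxj1, Sntn and Ubxn10.

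RNA was sequenced from total lung of Sprague-Dawley rats, and from lung endothelial cells (ECs), in 4 groups of 3 libraries. Ahr-KO rats, which carry a knockout of the aryl hydrocarbon receptor gene Ahr, and wild-type (WT) rats were given Sugen-hypoxia (SuHx) and are labelled as day 4. Sugen is an inhibitor of the VEGF receptor, and together with low oxygen it is used in rats as a model of pulmonary hypertension. The ECs came from WT rats in normoxia (day 4 by the labels, day 0 by the column names), and WT rats in normoxia, labelled as day 0, gave the lung baseline. The knockout allele, the way in which the ECs were isolated, and whether the libraries of a group came from separate animals are not stated in the labels, so p-values cover the spread between these libraries, which may be technical. Ahr-KO lung in normoxia was not analysed here, and the effect of the genotype is therefore seen only under SuHx. Libraries are named below by their group and the number at the end of their column, 0 to 2.

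The unit was signal, an estimated read count that the authors had divided by one factor per library. It is not divided by gene length, so levels are compared between libraries and not between genes. Total signal was 25.01 M to 27.1 M in the EC libraries and 20.6 M to 22.9 M in the lung libraries, and the reads behind it were estimated at 20.04 M to 28.6 M per library. Signal of Ahr itself was 2515, 2523 and 1800 in Ahr-KO SuHx lung, 1996, 3073 and 1740 in WT SuHx lung, and 5565, 3103 and 3950 in normoxia lung. It was thus no lower in Ahr-KO than in WT SuHx lung, and a signal summed over the whole gene does not test a small deletion. All 5 listed target genes of the receptor (Cyp1a1, Cyp1b1, Ahrr, Nqo1 and Tiparp) were lower in Ahr-KO than in WT SuHx lung, with Cyp1a1 at 3.87, 5.31 and 5.32 in Ahr-KO and 65459, 68888 and 75070 in WT SuHx lung. Lung libraries Ahr-KO 2 and normoxia 2 stood apart by genes of heart muscle and of large airways. Myh6, the alpha myosin heavy chain of heart muscle, had 1228, 673 and 4900 in Ahr-KO SuHx lung, 0 in all WT SuHx libraries, and 4.77, 0 and 2880 in normoxia lung. Bpifa1, a secreted protein of the upper airways, had 116, 15.1 and 28980 in Ahr-KO SuHx lung, 0 in all WT SuHx libraries, and 0.796, 0 and 1231 in normoxia lung.

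The promoters of 5 genes on which the results turn are shown first, from RefSeq on the rat assembly GRCr8, each from 250 bases before to 50 bases after the annotated start, 5′ to 3′ on the gene's strand. Tekt3 and Dnah9 are the 2 members that changed between lung groups, Drc1 and Sntn are, among members in rows of 1 symbol with a single window in the table, those whose levels followed the rest of the set most closely, and Ccno, no member, is the regulator of the same cells that changed most. Capitals mark 3 motifs searched on both strands, with no overlap between them. GTTGCC is the core of the site bound by Rfx factors. TGTTTAC is a forkhead site of the kind bound by Foxj1. GCGTG is the core of the site bound by the aryl hydrocarbon receptor. On the other strand each is shown by its reverse complement. A match to letters is a description and not a site.
Tekt3, chr10:48228609-48228908, plus strand: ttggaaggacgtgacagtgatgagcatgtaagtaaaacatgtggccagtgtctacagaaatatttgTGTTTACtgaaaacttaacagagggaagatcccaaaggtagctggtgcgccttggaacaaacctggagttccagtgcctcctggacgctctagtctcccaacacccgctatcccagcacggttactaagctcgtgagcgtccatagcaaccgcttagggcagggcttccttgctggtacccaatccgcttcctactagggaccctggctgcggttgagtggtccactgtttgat
Dnah9, chr10:51363914-51364213, minus strand: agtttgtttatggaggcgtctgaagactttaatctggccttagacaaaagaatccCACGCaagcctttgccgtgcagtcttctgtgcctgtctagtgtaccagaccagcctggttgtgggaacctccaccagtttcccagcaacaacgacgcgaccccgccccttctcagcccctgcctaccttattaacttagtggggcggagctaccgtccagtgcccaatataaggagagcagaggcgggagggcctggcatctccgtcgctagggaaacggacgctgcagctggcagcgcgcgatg
Drc1, chr6:31779207-31779506, minus strand: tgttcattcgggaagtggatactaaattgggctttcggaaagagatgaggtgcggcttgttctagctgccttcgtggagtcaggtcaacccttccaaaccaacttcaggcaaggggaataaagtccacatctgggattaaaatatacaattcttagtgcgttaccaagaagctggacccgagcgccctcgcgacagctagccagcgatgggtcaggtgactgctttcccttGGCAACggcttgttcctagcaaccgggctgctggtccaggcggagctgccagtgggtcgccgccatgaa
Sntn, chr15:13956041-13956340, minus strand: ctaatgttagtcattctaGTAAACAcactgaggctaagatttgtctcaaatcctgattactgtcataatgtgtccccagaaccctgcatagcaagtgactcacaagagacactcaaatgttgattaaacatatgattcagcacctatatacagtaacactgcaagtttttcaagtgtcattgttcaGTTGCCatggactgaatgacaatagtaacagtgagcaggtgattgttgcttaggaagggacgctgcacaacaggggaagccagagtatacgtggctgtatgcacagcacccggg
Ccno, chr2:46363824-46364123, plus strand: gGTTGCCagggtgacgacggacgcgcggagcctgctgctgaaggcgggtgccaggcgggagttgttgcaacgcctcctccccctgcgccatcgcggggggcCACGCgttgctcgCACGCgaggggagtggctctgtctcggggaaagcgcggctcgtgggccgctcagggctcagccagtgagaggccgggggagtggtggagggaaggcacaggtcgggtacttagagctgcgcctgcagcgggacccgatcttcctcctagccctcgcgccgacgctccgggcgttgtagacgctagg
Of the 57 member symbols, 49 were in the promoter table, and 38 had a single window there. Of those 38, the Rfx core was in 13 (34.2%), against 12% of all 24206 genes with a single window. The forkhead site was in 4 (10.5%), against 3.8%, and the receptor core in 18 (47.4%), against 31.8%. The windows were not matched for base composition, and the shares were not tested.

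The set was depleted in ECs. Against normoxia lung, 50 of the 61 members were lower in ECs, 3 were higher and 8 did not pass the test, where 56.2% of all 15186 rows tested were called (30.1% lower and 26.1% higher). A row was called at an adjusted p under 0.05 in limma. The median log2 fold change of the members was -4.19, beside -0.05 for all rows, and 31 members lay below -4. In bulk RNA, fewer cells of a type and less RNA per cell cannot be told apart. All 10 endothelial markers were higher in ECs, and all 12 alveolar epithelial markers were lower, with a median log2 fold change of -1.78. Of 4 leukocyte markers 3 were higher in ECs. Airway epithelial signal was also present in the ECs, with Scgb1a1, the club cell secretory protein, at 15424, 26522 and 8872 in ECs and 148299, 153879 and 165179 in normoxia lung. The part of such RNA in the remaining cilium signal was not tested.

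**Figure D1:**
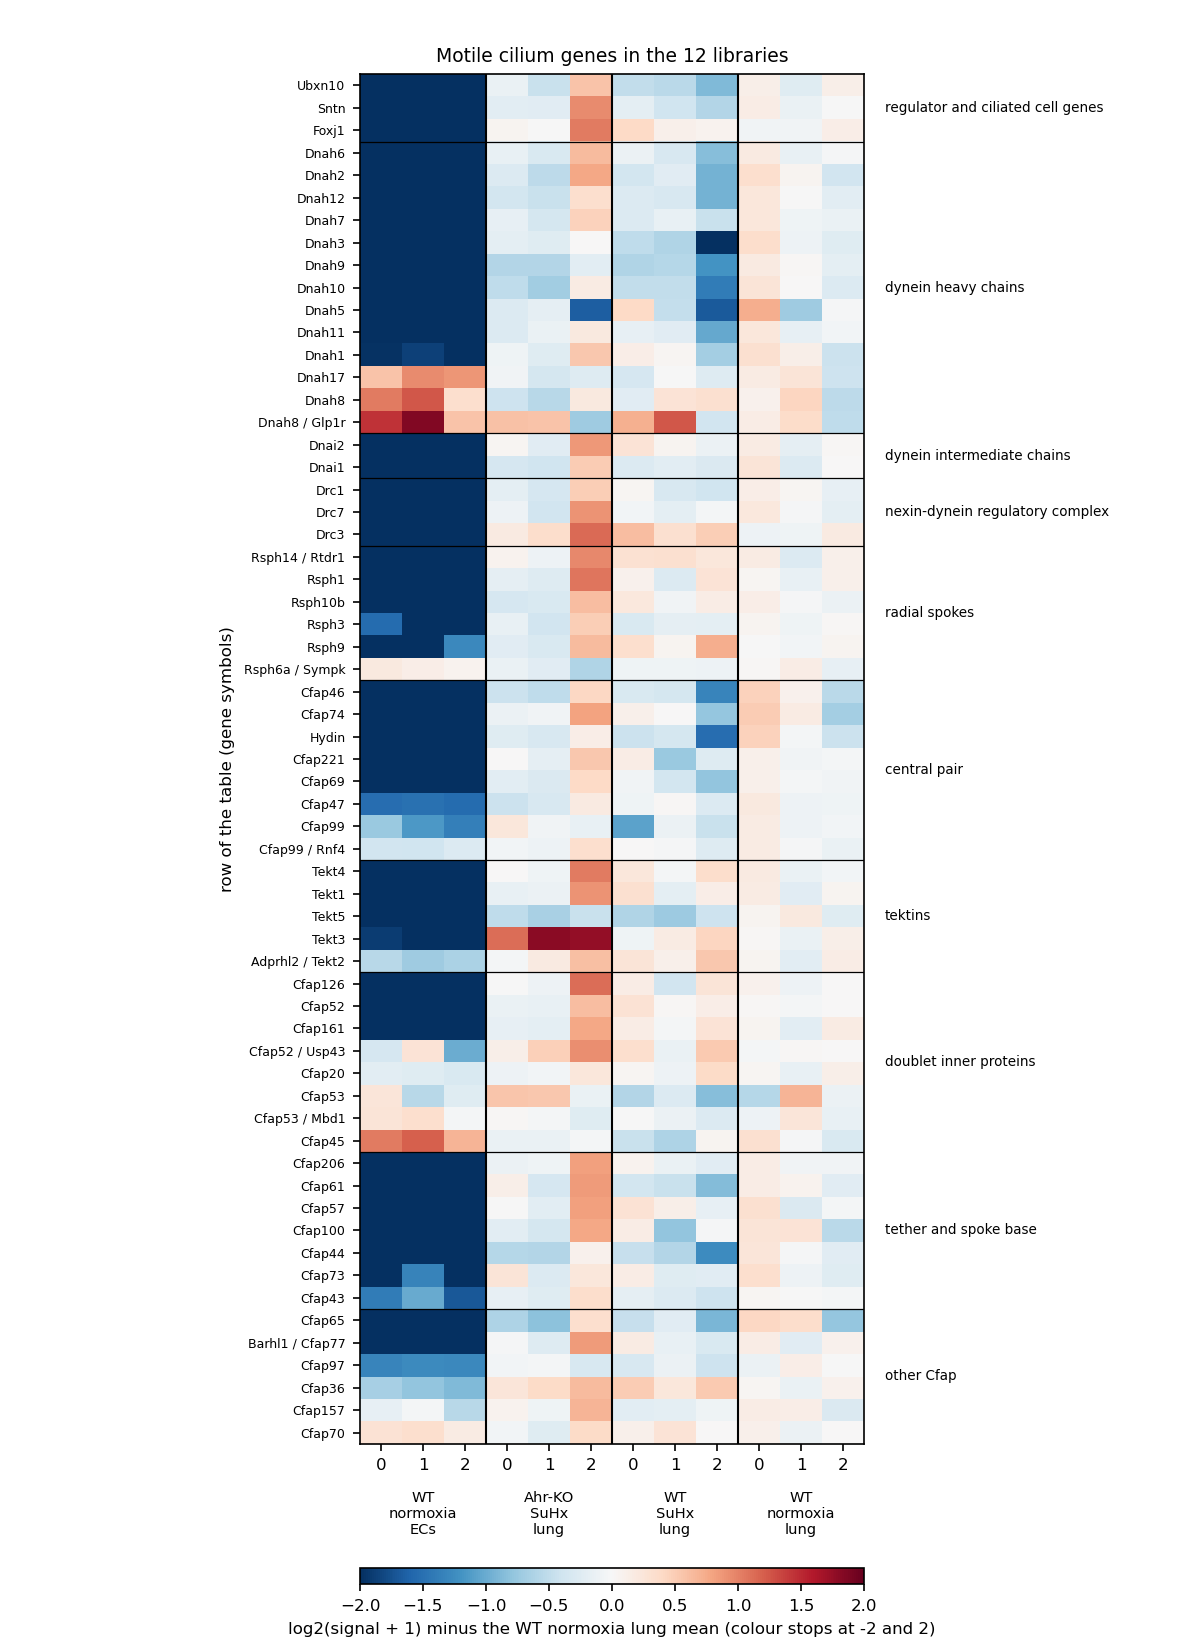
Level of each of the 61 motile cilium rows in each library, as log2(signal + 1) minus the mean of the 3 normoxia lung libraries (colour, blue lower and red higher, stopping at -2 and 2). Columns are libraries 0 to 2 of each group and rows are grouped by role; 50 rows were lower in ECs, and Ahr-KO 2 was the highest lung library for 37.

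Foxj1, the master regulator of motile ciliogenesis, had a signal of 27.3, 28.9 and 13.7 in ECs, against 826, 823 and 949 in normoxia lung. It was 37.3-fold lower in ECs (log2 fold change -5.22 ± 0.29, SE, adjusted p = 3.13e-05). Sntn, a protein of the ciliary tip, had 3.42, 3.62 and 0 in ECs, against 310, 255 and 278 in normoxia lung, a fold of 103 lower in ECs. Ubxn10, an adaptor of intraflagellar transport, had 3.42, 9.64 and 1.25 in ECs, against 542, 423 and 539 in normoxia lung. With -6.72 ± 0.54 (SE, adjusted p = 8.78e-05) it had the largest log2 fold change of the set. Sntn and Ubxn10 were close to 0 in ECs, Foxj1 was low but present in each EC library, and none of the 3 overlapped between the groups.

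The structural parts of the axoneme were lower in ECs as well. Of the 13 heavy chain rows 10 were lower, with a median of -4.31 over the 13. Dnah12, an inner arm chain, had 60.3, 66.3 and 29.95 in ECs, against 2076, 1764 and 1535 in normoxia lung. Dnah11, in human airway cilia an outer arm chain of the proximal part, had 91.0, 134 and 181 in ECs, against 905, 690 and 745 in normoxia lung. Both intermediate chains, Dnai1 and Dnai2, were lower in ECs, by 34.1-fold and 43.1-fold, and so were all 3 rows of the nexin-dynein regulatory complex. All 8 central pair rows were lower, among them Hydin, a large protein of a central pair projection, with 27.3, 43.4 and 12.5 in ECs and 1371, 967 and 734 in normoxia lung. All 5 tektins and all 7 rows of the tether and spoke base were lower, and so were 5 of the 6 radial spoke rows. The tektin row Adprhl2,Tekt2 (log2 fold change -0.63) and the central pair row Cfap99,Rnf4 (-0.35) each join a second gene. The part of that gene in the difference was not tested. The call of Cfap99,Rnf4 was lost in 3 of 13 alternative analyses. Cfap46 of the central pair, at 10.2, 16.9 and 3.74 in ECs and 913, 701 and 453 in normoxia lung, was 67.3-fold lower in ECs.

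The rows grouped as inner proteins of the doublet were the exception among the roles, with 3 of 8 lower in ECs, 1 higher and a median log2 fold change of -0.30. The 3 were Cfap126 (-4.50), Cfap52 in its own row (-3.81) and Cfap161 (-2.81). Of the 8, the rows Cfap52,Usp43 and Cfap53,Mbd1 join a second gene. Cfap53 in its own row had a low mean signal, 6.72 in ECs and 8.15 in normoxia lung. Cfap45 had 2131, 2380 and 1664 in ECs, against 1300, 1018 and 842 in normoxia lung, and was 1.96-fold higher in ECs (log2 fold change 0.97 ± 0.19, SE, adjusted p = 0.00404). Cfap20, which also serves non-motile cilia, had 891, 871 and 830 in ECs, against 1056, 928 and 1117 in normoxia lung, a difference that did not pass the test (adjusted p = 0.0628). Among the heavy chains, Dnah17, known from sperm, had 179, 231 and 221 in ECs, against 134, 143 and 89.7 in normoxia lung (1.74-fold higher in ECs, adjusted p = 0.0207). The row Dnah8,Glp1r had 416, 553 and 228 in ECs, against 169, 197 and 107 in normoxia lung (2.44-fold higher in ECs, adjusted p = 0.0193). Each of these 2 calls was lost in 3 of 13 alternative analyses. Of the 11 members that were not lower in ECs, 4 are in rows that join a second gene (Glp1r, Usp43, Mbd1 or Sympk). The other 7 are Cfap45, Dnah17, Dnah8, Cfap20, Cfap53, Cfap70 and Cfap157. Among the members that were lower in ECs, 4 are also in rows that join symbols. The part of the second gene in these rows was not tested.

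WT SuHx lung was compared with normoxia lung to see what the treatment does at day 4. Of the 61 members, 1 fell and none rose, where 13.5% of all 15234 rows tested were called (6.39% lower and 7.08% higher). At an unadjusted p under 0.05 there were 8 of 61 members, against 31.7% of all rows. The member median was -0.18 on the log2 scale, beside -0.04 for all rows, and 21 members had a value above 0, against 45.7% of all rows. In 16 members all WT SuHx libraries lay below all normoxia libraries, against 19.7% of all rows, and in 4 they lay above, against 17%.

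Dnah9, in human airway cilia the outer arm heavy chain of the distal part, had 555, 565 and 367 in WT SuHx lung, against 954, 850 and 731 in normoxia lung. The groups did not overlap, and Dnah9 was 1.73-fold lower in WT SuHx lung (log2 fold change -0.79 ± 0.19, SE, adjusted p = 0.0265). The call was lost in 6 of 21 alternative analyses, among them those without normoxia 0 (adjusted p = 0.0999), normoxia 1 (0.0732), WT SuHx 0 (0.0516) or WT SuHx 2 (0.0609), and over the 21 the log2 fold change ran from -0.90 to -0.58. Heavy chains as a class had a median of -0.47, 11 of 13 were below 0, and in 6 all WT SuHx libraries lay below all normoxia libraries, against 19.7% of all rows. In the same comparison 11 of 12 alveolar epithelial markers were below 0 (median -0.37, 2 fell), as were 7 of 10 endothelial markers (median -0.32, 2 fell and 1 rose). Their part in the heavy chain values was not tested. Dnah3, an inner arm chain, had 305, 286 and 80.4 in WT SuHx lung, against 552, 406 and 365 in normoxia lung (log2 fold change -1.18 ± 0.43, SE, adjusted p = 0.0998). Dnah10, another inner arm chain, had 555, 556 and 295 in WT SuHx lung, against 938, 786 and 645 in normoxia lung (-0.79 ± 0.29, adjusted p = 0.0971). Neither passed the test, although the groups did not overlap for either gene.

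The central pair had a median of -0.35 in WT SuHx against normoxia lung, and all 8 of its rows were below 0, with none called. Hydin had 739, 780 and 346 in WT SuHx lung, against 1371, 967 and 734 in normoxia lung. The groups overlapped, since WT SuHx 0 and 1 were just above normoxia 2 (log2 fold change -0.76 ± 0.32, SE, adjusted p = 0.138). In the tether and spoke base, Cfap44 had 1480, 1354 and 854 in WT SuHx lung, against 2408, 2016 and 1744 in normoxia lung, without overlap and with an adjusted p of 0.0640. Cfap43, its partner there, had 1319, 1242 and 1125 in WT SuHx lung, against 1539, 1493 and 1456 in normoxia lung (adjusted p = 0.21). Tekt5, a tektin known from sperm, had 82.3, 75.7 and 93.8 in WT SuHx lung, against 130, 145 and 106 in normoxia lung (adjusted p = 0.0687).

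Among the other roles in this comparison, the 3 regulator and ciliated cell genes had a median of -0.39, the tether and spoke base -0.22 and the remaining Cfap genes -0.13. The medians were 0.06 for the radial spokes, 0.06 for the inner proteins of the doublet, 0.17 for the tektins and -0.09 for both the intermediate chains and the nexin-dynein regulatory complex. Foxj1 had 1142, 932 and 911 in WT SuHx lung, against 826, 823 and 949 in normoxia lung, with overlap (log2 fold change 0.20 ± 0.25, SE, adjusted p = 0.615). Sntn had 245, 213 and 187 in WT SuHx lung, against 310, 255 and 278 in normoxia lung, without overlap (adjusted p = 0.382). Ubxn10 had 352, 343 and 270 in WT SuHx lung, against 542, 423 and 539 in normoxia lung, also without overlap (adjusted p = 0.105). Cfap36, which acts with the small GTPase Arl3 in cilia, was the highest member relative to its error, at 1151, 943 and 1154 in WT SuHx lung, against 831, 732 and 859 in normoxia lung (log2 fold change 0.42 ± 0.13, SE, adjusted p = 0.0598). Drc3 had 297, 243 and 274 in WT SuHx lung, against 181, 182 and 220 in normoxia lung, without overlap (adjusted p = 0.196). Rsph9, a protein of the spoke head, had 545, 448 and 717 in WT SuHx lung, against 427, 417 and 449 in normoxia lung, where WT SuHx 1 lay below normoxia 2 (adjusted p = 0.324).

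**Figure D2:**
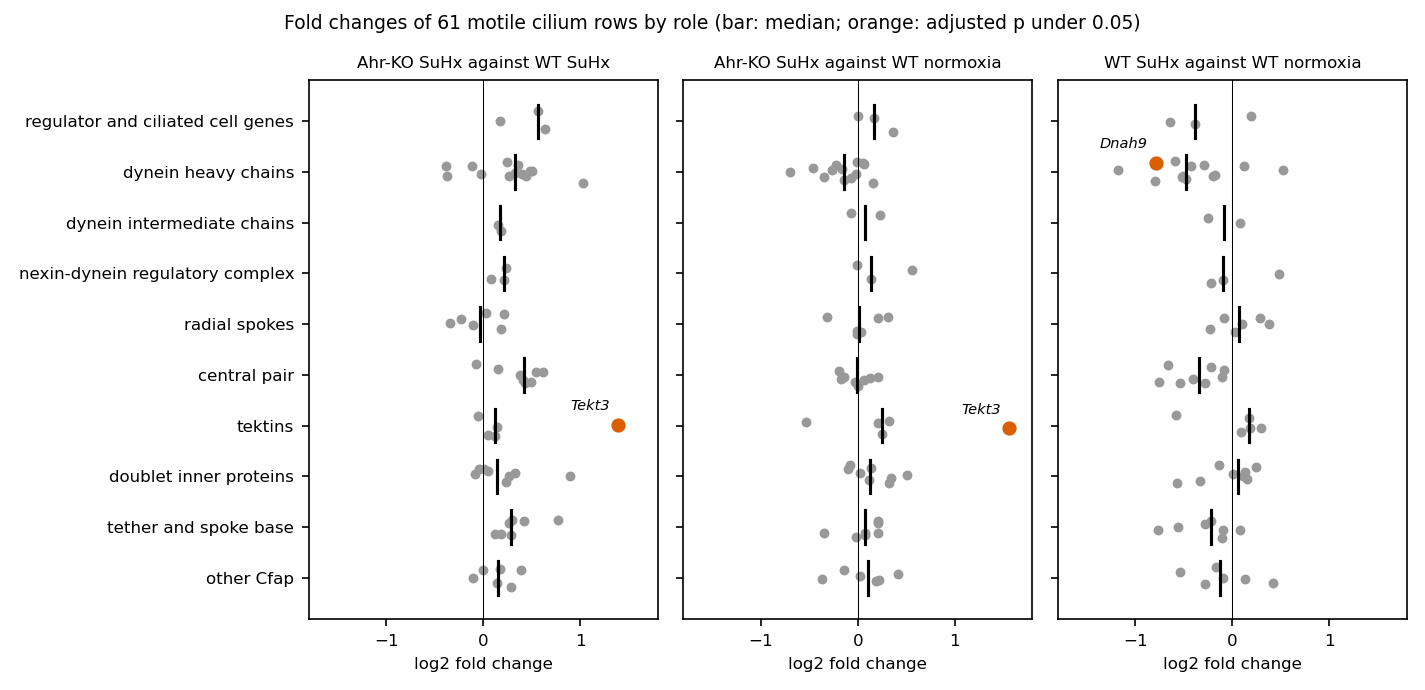
Log2 fold change (x axis, log2(signal + 1) scale) of each of the 61 motile cilium rows in the 3 lung comparisons, by role. Each point is a row, black bars are the role's median and orange points are the called rows: Tekt3 with 1.39 and 1.56 in the comparisons with Ahr-KO, and Dnah9 with -0.79 in WT SuHx against normoxia lung.

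Part of the heavy chain difference lay in single libraries. WT SuHx 2 was the lowest of the 9 lung libraries for 11 of the 14 rows that are heavy chains or Hydin (78.6%), for 16 of the 47 other members (34%) and for 23.9% of all rows. In WT SuHx 2 those 14 rows had a median 1.63-fold lower than the mean of the other 2 WT SuHx libraries. For the other members it was 1.03-fold lower. Such means were taken on the log2(signal + 1) scale. In normoxia 2 all 14 rows were lower than the mean of the other 2 normoxia libraries, by a median of 1.31-fold. On the side of the baseline, normoxia 0 was the highest of the 9 lung libraries for 6 of the 14 rows (42.9%). It was the highest for 6 of the 47 other members (12.8%) and for 14% of all rows. Without WT SuHx 2 no member was called in WT SuHx against normoxia lung, and the member median was -0.12. Nor was any member called without normoxia 0, normoxia 1 or WT SuHx 0. Each of these fits called fewer of all rows, with 1115 of 15211 without WT SuHx 2, against 2052 of 15234 in the main fit. The cause of the low values in WT SuHx 2 was not tested.

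Ahr-KO SuHx lung was compared with WT SuHx lung to see what the receptor does under the treatment. Of the 61 members 1 was higher in Ahr-KO and none was lower, where 0.499% of all rows were called (0.197% higher and 0.302% lower). Tekt3, a tektin of the doublet wall best known from sperm flagella, had 238, 385 and 372 in Ahr-KO SuHx lung, against 103, 122 and 147 in WT SuHx lung. All Ahr-KO libraries lay above all WT SuHx libraries, and Tekt3 was 2.62-fold higher in Ahr-KO (log2 fold change 1.39 ± 0.22, SE, adjusted p = 0.0331). The call was lost in 12 of 21 alternative analyses, with an adjusted p of up to 0.183, while the log2 fold change ran from 1.20 to 1.61. It was lost without Ahr-KO 1 (adjusted p = 0.158), Ahr-KO 2 (0.0914), WT SuHx 0 (0.132), WT SuHx 1 (0.0914), WT SuHx 2 (0.0565) or normoxia 0 (0.0605). The other 4 tektins were not called. Tekt4 had 193, 182 and 396 in Ahr-KO SuHx lung, against 225, 187 and 246 in WT SuHx lung, and Tekt1 had 245, 251 and 508 in Ahr-KO SuHx lung, against 341, 239 and 299 in WT SuHx lung. Both overlapped between the groups, and their log2 fold changes were 0.14 ± 0.28 and 0.12 ± 0.28 (SE).

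Over the set, 48 of 61 members were above 0 in Ahr-KO against WT SuHx lung, against 53.3% of all rows, and the median was 0.22, beside 0.02 for all rows. In 7 members the Ahr-KO libraries lay above all WT SuHx libraries, against 11.7% of all rows, and in 1 they lay below, against 10.2%. Of 9 heart muscle markers all were above 0 in the same comparison, with a median of 4.15, and for 8 of them each Ahr-KO library lay above all WT SuHx libraries. Of 10 airway secretory markers tested 8 were above 0, with a median of 2.20, and for 5 of them the Ahr-KO libraries lay above all WT SuHx libraries. No marker of either list was called, and their part in the cilium values was not tested. The members' values rested largely on one library. Without Ahr-KO 2, 32 of 61 members were above 0, the median was 0.01, and no member was called, where 0.362% of all rows were called. Hydin had 834, 796 and 1087 in Ahr-KO SuHx lung, against 739, 780 and 346 in WT SuHx lung, where Ahr-KO 2 was the highest and WT SuHx 2 the lowest of the 6 libraries (adjusted p = 0.423). Dnah3 had 379, 366 and 437 in Ahr-KO SuHx lung, against 305, 286 and 80.4 in WT SuHx lung, without overlap (log2 fold change 1.03 ± 0.43, SE, adjusted p = 0.347). Ubxn10 had 454, 367 and 738 in Ahr-KO SuHx lung, against 352, 343 and 270 in WT SuHx lung, without overlap (0.64 ± 0.24, SE, adjusted p = 0.296). Foxj1 had 900, 858 and 1780 in Ahr-KO SuHx lung, against 1142, 932 and 911 in WT SuHx lung, so that Ahr-KO 0 and 1 lay below all WT SuHx libraries and Ahr-KO 2 above them (adjusted p = 0.781).

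**Figure D3:**
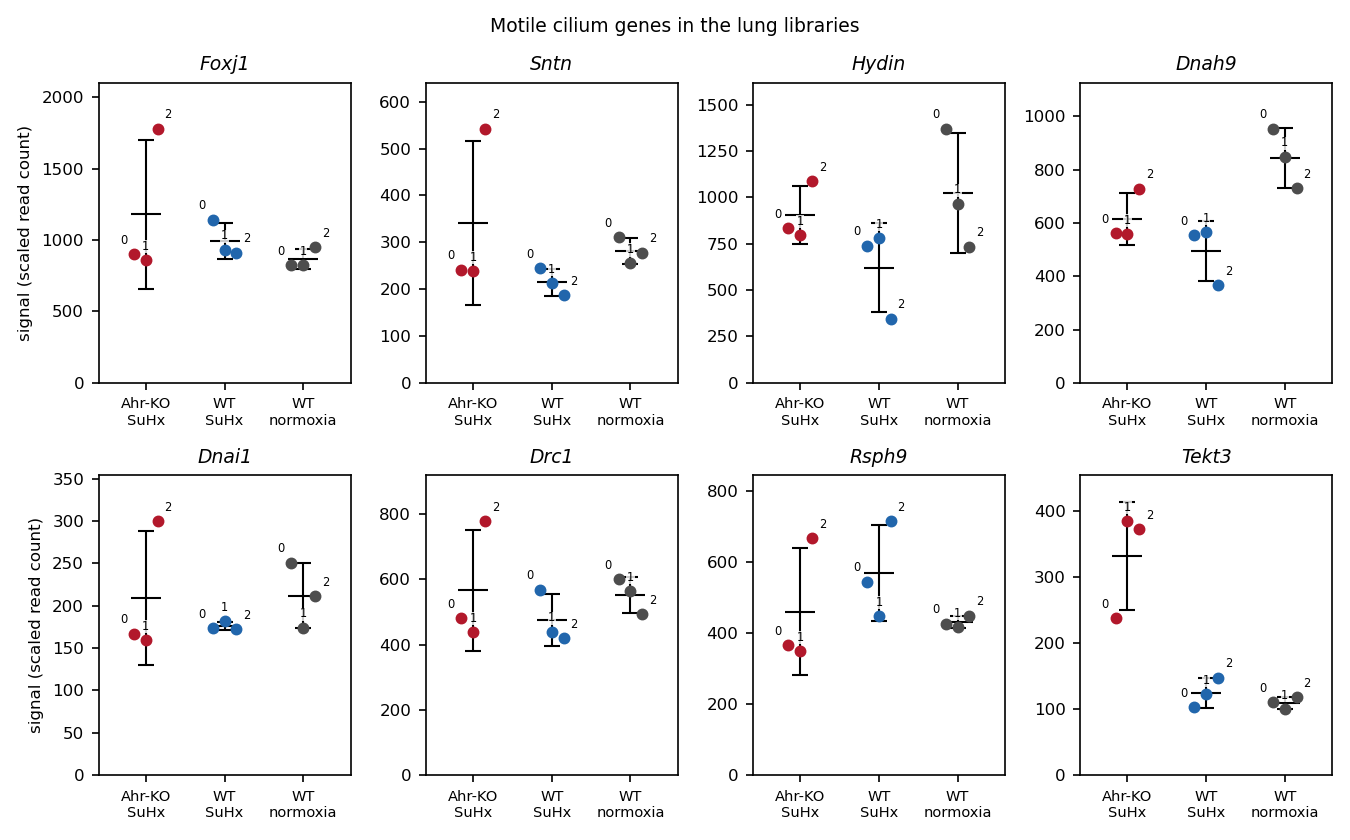
Signal (scaled read count, linear axis from 0) of 8 motile cilium genes in the 9 lung libraries, numbered 0 to 2 within each group. Horizontal bars are means and error bars SD (n = 3); Ahr-KO 2 is far above Ahr-KO 0 and 1 for Foxj1 and Sntn, and all 3 Ahr-KO libraries are above the others for Tekt3.

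Ahr-KO SuHx lung against normoxia lung shares its libraries with the comparisons above, and its values are given beside them. Again 1 member was higher and none lower in Ahr-KO SuHx lung, where 9.75% of all rows were called (5.95% higher and 3.8% lower). It was Tekt3, at 238, 385 and 372 in Ahr-KO SuHx lung and 111, 99.7 and 118 in normoxia lung, 2.95-fold higher in Ahr-KO SuHx lung (log2 fold change 1.56 ± 0.22, SE, adjusted p = 0.00256). This call held in all 21 alternative analyses, with an adjusted p of at most 0.0387. In WT SuHx against normoxia lung Tekt3 had a log2 fold change of 0.17 ± 0.22 (SE, adjusted p = 0.628), with overlap. The set as a whole had a median of 0.03, beside -0.03 for all rows, and 34 of 61 members above 0, against 45.8% of all rows. Without Ahr-KO 2 the median was -0.18 and 9 members were above 0, with Tekt3 the one member called, where 5.75% of all rows were called. Dnah9 had 561, 558 and 728 in Ahr-KO SuHx lung, below the 954, 850 and 731 of normoxia lung without overlap, but the difference did not pass the test (-0.46 ± 0.19, SE, adjusted p = 0.165).

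Ahr-KO 2 was the highest of the 9 lung libraries for 37 of the 61 members (60.7%), against 14.5% of all rows. It was the highest for 5 of the 14 rows of heavy chains and Hydin (35.7%) and for 32 of the 47 other members (68.1%). Relative to the mean of Ahr-KO 0 and 1, taken on the log2(signal + 1) scale, 53 members were higher in Ahr-KO 2, by a median of 1.65-fold. Among the 50 members that were lower in ECs 47 were higher, by 1.75-fold. The 18 other ciliated cell markers went the same way, 17 of them higher in Ahr-KO 2 with a median of 1.88-fold. So did airway secretory markers, of which 10 of 10 tested were higher by a median of 3.93-fold, basal cell markers (4 of 5, 3.28-fold) and heart muscle markers (9 of 9, 6.39-fold). The summed secretory signal without Scgb1a1 was 8960, 8840 and 79786 in Ahr-KO SuHx lung, 7630 to 10231 in WT SuHx lung and 4054 to 10237 in normoxia lung. Normoxia 2 also had more heart muscle signal, by a median of 67.1-fold over the mean of normoxia 0 and 1, and more signal of airway secretory markers (8 of 10 higher, 1.502-fold) and basal cell markers (5 of 5, 2.35-fold). Of its cilium genes 20 of 61 were above that mean. How far the airway content of Ahr-KO 2 accounts for its cilium signal was not tested.

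**Figure D4:**
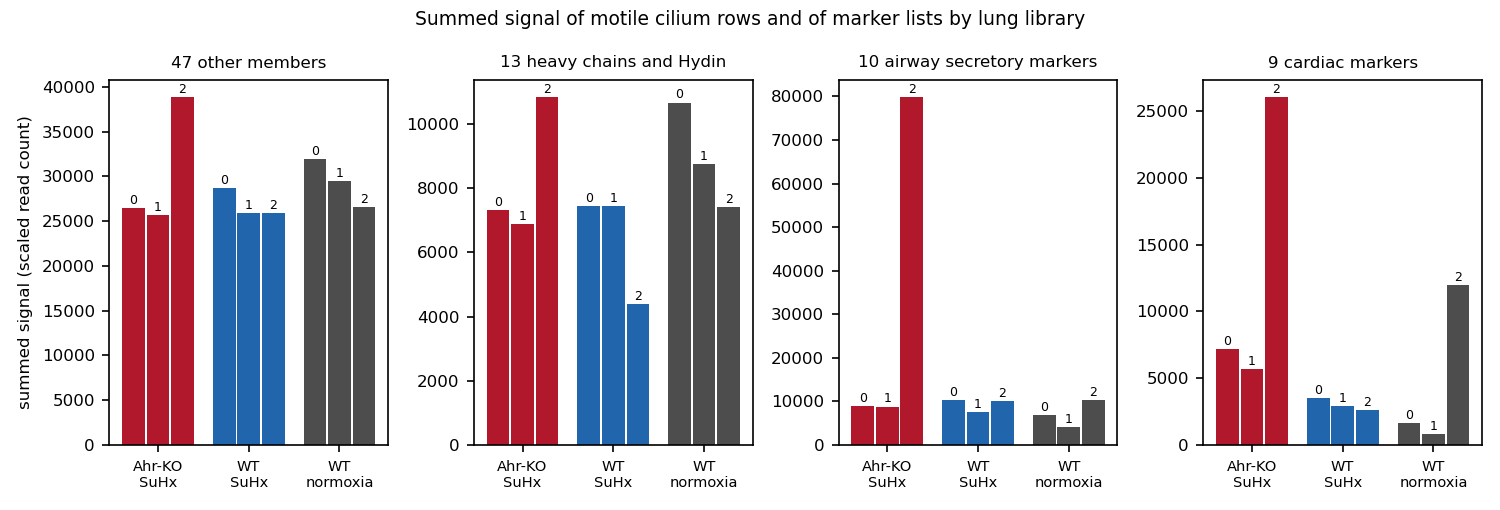
Summed signal (scaled read count, linear axis from 0) in each of the 9 lung libraries, numbered 0 to 2, for the 47 members other than heavy chains and Hydin, the 14 rows of heavy chains and Hydin, the 10 airway secretory markers other than Scgb1a1 and the 9 cardiac markers. Ahr-KO 2 is high in all 4 panels, but for heavy chains and Hydin normoxia 0 is close to it. WT SuHx 2 is low for heavy chains and Hydin, and normoxia 2 is high for the cardiac markers.

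The summed signal of the 61 members was 33814, 32591 and 49667 in Ahr-KO SuHx lung, 36123, 33345 and 30332 in WT SuHx lung, and 42593, 38279 and 33976 in normoxia lung. With Ahr-KO 2 set aside, both Ahr-KO libraries and 2 of the 3 WT SuHx libraries lay below all normoxia libraries in these sums. For Ahr-KO 0 the margin to normoxia 2 was small, and it depended on the scaling. Relative to each library's total signal, Ahr-KO 0 was just above normoxia 2, while Ahr-KO 1, WT SuHx 1 and WT SuHx 2 stayed below all normoxia libraries. The sums include the rows that join a second gene, such as Cfap99,Rnf4 at 3946 in Ahr-KO 0 and 3728 in normoxia 2. When all 3 lung libraries numbered 2 were left out, a choice made after seeing these values, 10 members fell and none rose in WT SuHx against normoxia lung, where 20.6% of all rows were called (11.1% lower and 9.45% higher). They were 4 heavy chains (Dnah3, Dnah9, Dnah10 and Dnah12), the central pair members Hydin and Cfap46, and Cfap44, Cfap45, Cfap65 and Tekt5, with log2 fold changes of -0.79 to -0.41. In Ahr-KO SuHx against normoxia lung the same choice left Tekt3 higher and 8 members lower, where 17.4% of all rows were called (8.75% higher and 8.63% lower). In Ahr-KO against WT SuHx lung it left no member called, where 0.647% of all rows were called, and a median of -0.07. These groups hold 2 libraries each, and the lists rest on small numbers.

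Regulators of the multiciliated programme act before the axoneme is built. Of 9 listed regulators, Myb was not matched and Cdc20b was at 0, so that 7 were tested. In WT SuHx against normoxia lung 1 rose and 1 fell, where 13.5% of all rows were called. In Ahr-KO SuHx against normoxia lung 3 were higher, where 9.75% of all rows were called, and in Ahr-KO against WT SuHx lung none was called, where 0.499% of all rows were. Ccno, which drives the amplification of centrioles, had 179, 246 and 515 in Ahr-KO SuHx lung, 392, 321 and 489 in WT SuHx lung, and 68.4, 33.2 and 50.6 in normoxia lung. Each SuHx library was thus above each normoxia library. Ccno was 7.96-fold higher in WT SuHx lung (log2 fold change 2.99 ± 0.39, SE, adjusted p = 0.00172) and 5.72-fold higher in Ahr-KO SuHx lung (adjusted p = 0.00399), both against normoxia lung. Both calls held in all 21 alternative analyses, with adjusted p of at most 0.0102 and 0.0393. Between Ahr-KO and WT SuHx lung the log2 fold change was -0.48 ± 0.39 (SE, adjusted p = 0.599), with overlap. In ECs Ccno was at 4.55, 4.82 and 1.25.

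Mcidas, which activates the programme with E2f factors, had 61.1, 65.5 and 82.1 in Ahr-KO SuHx lung, 63.4, 65.0 and 24.6 in WT SuHx lung, and 23.1, 23.0 and 19.2 in normoxia lung. It was 3.09-fold higher in Ahr-KO SuHx than in normoxia lung (adjusted p = 0.0237), while WT SuHx against normoxia lung did not pass the test (log2 fold change 1.07 ± 0.37, SE, adjusted p = 0.0798), with WT SuHx 2 close to normoxia. Deup1, which builds the deuterosomes on which centrioles form, had 141, 167 and 301 in Ahr-KO SuHx lung, 176, 161 and 134 in WT SuHx lung, and 100, 53.7 and 75.9 in normoxia lung. It was 2.57-fold higher in Ahr-KO SuHx than in normoxia lung (adjusted p = 0.0262), and in WT SuHx lung it had a log2 fold change of 1.06 ± 0.31 (SE, adjusted p = 0.0533), without overlap. The Ahr-KO calls of Mcidas and Deup1 were each lost in 7 of 21 alternative analyses. That of Mcidas was lost without any of the Ahr-KO libraries 0, 1 or 2 (adjusted p = 0.0545, 0.0724 and 0.0766) or without normoxia 0 or 1 (0.0665 and 0.0569). That of Deup1 was lost without Ahr-KO 1 (0.0631), Ahr-KO 2 (0.0658) or normoxia 1 (0.0819). In Ahr-KO 2 all 7 regulators were higher than in the mean of Ahr-KO 0 and 1, by a median of 1.63-fold. Gmnc, which acts above Mcidas, went the other way in WT SuHx lung. It had 42.6, 64.6 and 79.8 in Ahr-KO SuHx lung, 34.1, 23.7 and 23.1 in WT SuHx lung, and 50.1, 63.9 and 57.5 in normoxia lung, and it was 2.10-fold lower in WT SuHx than in normoxia lung (adjusted p = 0.0383). That call was lost in 11 of 21 alternative analyses, and without any one of the WT SuHx or normoxia libraries or Ahr-KO 1 (adjusted p from 0.0578 to 0.112). Tp73, Rfx2 and Rfx3, which act beside or above Foxj1, did not pass the test in any lung comparison. All 7 regulators were lower in ECs than in normoxia lung, where 30.1% of all rows were lower.

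**Figure D5:**
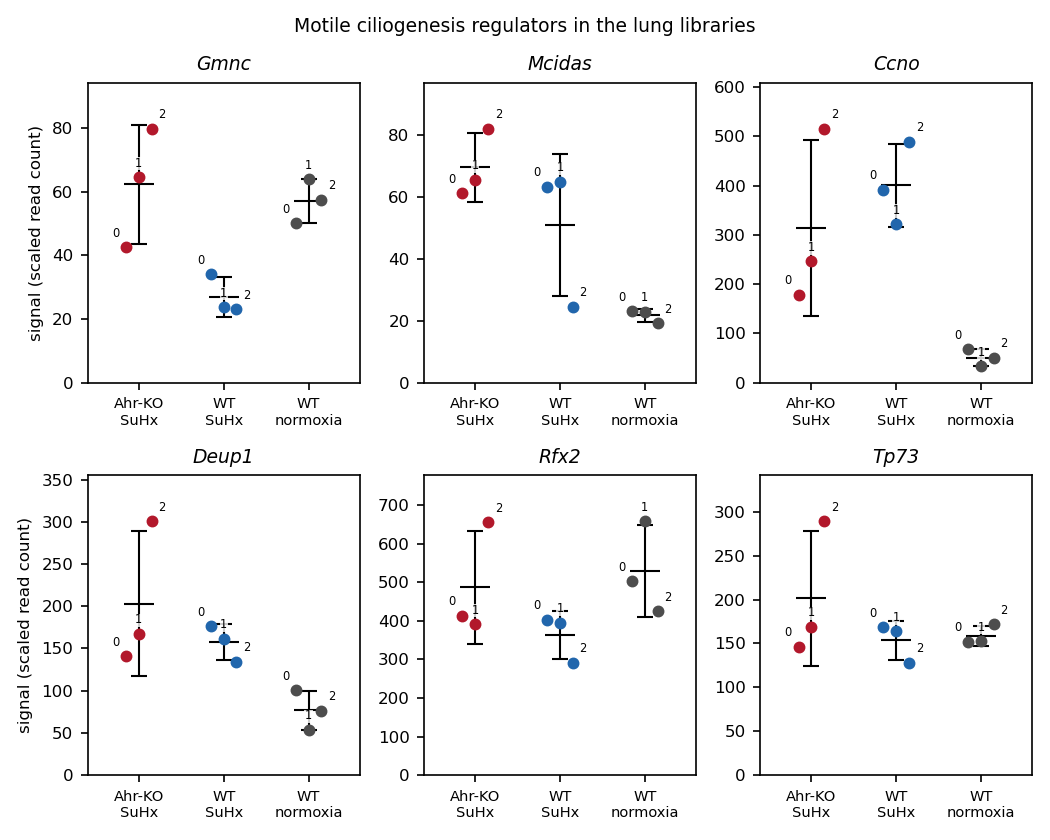
Signal (scaled read count, linear axis from 0) of 6 regulators of the multiciliated programme in the 9 lung libraries, numbered 0 to 2 within each group, with means and SD (n = 3). Ccno is higher in all 6 SuHx libraries than in normoxia lung, and Gmnc is lower in the 3 WT SuHx libraries than in the others.

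Genes that serve the same organelle under other names were examined as lists. Some of their rows join a second gene, such as Cenpb,Spef1 and Cnp,Ttc25, and the part of that gene was not tested. The row Dnaaf3,Tnni3 was counted both among the factors that assemble dyneins and among the heart muscle markers. Of all rows, 13.5% were called in WT SuHx against normoxia lung and 0.499% in Ahr-KO against WT SuHx lung. The share was 9.75% in Ahr-KO SuHx against normoxia lung. In ECs against normoxia lung 30.1% of all rows were lower and 26.1% higher. Of 11 factors that assemble axonemal dyneins, 1 fell in WT SuHx against normoxia lung, the row Dnaaf4,Dyx1c1,Pygo1, at 331, 282 and 162 in WT SuHx lung and 483, 497 and 414 in normoxia lung (1.87-fold lower in WT SuHx lung, adjusted p = 0.0344). Without normoxia 0, normoxia 1, Ahr-KO 0 or Ahr-KO 1 the adjusted p of this row was 0.107, 0.0998, 0.0532 and 0.0565. None of the 15 tested genes of dynein docking, rulers and the nexin link and none of 10 further central pair genes was called in any lung comparison. In Ahr-KO against WT SuHx lung 14 of those 15 and 9 of those 10 were above 0, against 53.3% of all rows. For 6 of the 15 and none of the 10, all Ahr-KO libraries lay above all WT SuHx libraries, against 11.7% of all rows. In ECs 13 of those 15 and all 10 were lower than in normoxia lung. Of 27 genes of intraflagellar transport, the freight system that non-motile cilia also use, 23 were lower and 1 higher in ECs, but with a median log2 fold change of only -0.84. In lung 1 of the 27 was called, Ift80, at 737, 749 and 826 in Ahr-KO SuHx lung and 630, 553 and 621 in normoxia lung (1.28-fold higher in Ahr-KO SuHx lung, adjusted p = 0.0495), a call lost in 15 of 21 alternative analyses, without any of 8 of the 9 lung libraries among them. Of 18 other markers of ciliated airway cells, 17 were lower and 1 higher in ECs. Sec14l3, a lipid-binding protein of airway epithelium, was the only one called in lung, at 21337, 21189 and 18925 in Ahr-KO SuHx lung, 18298, 13883 and 14962 in WT SuHx lung, and 34834, 45510 and 30770 in normoxia lung. It was 2.34-fold lower in WT SuHx (adjusted p = 0.00271) and 1.79-fold lower in Ahr-KO SuHx than in normoxia lung (adjusted p = 0.0176), without overlap in either case. The first call held in all 21 alternative analyses, and the second was lost without Ahr-KO 1 (adjusted p = 0.0589), without Ahr-KO 2 (0.0533) and with secretory markers as a covariate (0.168).

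Members varied together over the 9 lung libraries. As a description, with Ahr-KO 2 adding much of the common variation and all rows sharing the libraries' depth and makeup, the median Pearson r of a member with the mean standardised level of the other members was 0.735, and 0.569 without Ahr-KO 2. An r of at least 0.8 was reached by 22 members, and by 12 without Ahr-KO 2. Drc1 (0.966), the row Cfap99,Rnf4 (0.957) and Sntn (0.956) were closest to the rest. The row Cfap99,Rnf4 joins a second gene, and Cfap99 in its own row had an r of only 0.0947. At the other end, 6 members were below 0. The rows Rsph6a,Sympk (-0.56), Dnah8,Glp1r (-0.445) and Cfap53,Mbd1 (-0.163) each hold a second gene, and none of them was lower in ECs. Cfap97 (-0.189) and Dnah5 (-0.15), in human airway cilia the outer arm chain found along the whole length, stand in rows of their own, as does Cfap53 (-0.0713), which was not lower in ECs either. Dnah5 had a low and scattered signal of 37.2, 39.8 and 13.7 in Ahr-KO SuHx lung, 59.6, 32.1 and 13.4 in WT SuHx lung, and 75.6, 27.3 and 44.5 in normoxia lung. Cfap97 had 533, 540 and 444 in Ahr-KO SuHx lung, 446, 510 and 417 in WT SuHx lung, and 514, 606 and 550 in normoxia lung, so that Ahr-KO 2 was its lowest Ahr-KO library, unlike most of the set.

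Among rows outside the set, those most like the members over the 9 lung libraries were a row whose symbol had been turned into a date, then Ccdc180, Ccdc151,Rgl3, Sirt3, Mapk15, Stpg1, Ttc21a, Wdr63, T,T2 and Capsl, with r of 0.952 to 0.992. They are the 10 highest of about 13800 rows compared. Without Ahr-KO 2 their r ran from 0.778 (T,T2) to 0.976. Ccdc151 and Wdr63 were in the list of docking, ruler and nexin link genes and Capsl in the list of ciliated cell markers. In ECs these rows were not alike. Mapk15 had 5.69, 10.9 and 8.74 in ECs and 329, 298 and 236 in normoxia lung, but Ttc21a had 3856, 4099 and 2835 in ECs and 597, 512 and 422 in normoxia lung.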

How the data were processed

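The deposited table holds signal: per the file and its values, read counts estimated by the authors and divided by one factor per library, not whole reads. The submitters' processing notes name FastQC and rn6; aligner, counter and normalization are not stated in the labels. Columns were matched to groups by name, and a column's number was not matched to a title. Values were taken as log2(signal + 1) and fitted with limma 3.58.1 (R 4.3.3, empirical Bayes with a mean-variance trend) on rows with a mean signal of at least 1, with Benjamini-Hochberg adjustment over all rows. The 9 lung libraries entered a single fit, and ECs and normoxia lung another of 6. A fold change is on the log2(signal + 1) scale and understates low genes. Column numbers were not taken as pairs of libraries in these fits.

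The members, lists and tests were chosen with earlier results of these data known. Members were named if called in lung, among the 3 highest of their role, marker genes of ciliated cells, the 3 most changed in ECs each way, or the 5 least like the others; from each other list, the called genes or the highest were named, and further genes were chosen after their values were seen. Promoters came from RefSeq (GRCr8), a build other than rn6, by symbol, and the receptor motif was added after seeing the data. Alternatives changed the variance model, scaling, filter, pseudocount, libraries fitted, or covariates; 2 of them were chosen after seeing the data.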

Additional observations from a re-analysis of the deposited data

How the results depend on the processing

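Members called in WT SuHx against normoxia lung numbered 1, where 2052 rows were called in all. This became 2 with the replicate block (3385 of all rows) and 4 with airway secretory markers as a covariate (2977). It was 6 without both normoxia 2 and Ahr-KO 2 (2729) and 10 without all 3 lung libraries numbered 2 (3111). Leaving out each library in turn gave 0 to 4 members, where 862 to 2380 of all rows were called. In Ahr-KO against WT SuHx lung the count of 1 became 0 without the mean-variance trend and with only the groups compared in the fit. It also became 0 with either covariate, without both normoxia 2 and Ahr-KO 2, and without all 3 libraries numbered 2. In the last of these the median became -0.07. Leaving out each library gave 0 to 1. Over all rows 76 were called in the main fit, and 24 to 100 in these alternatives. In Ahr-KO SuHx against normoxia lung the count of 1 became 2 with the replicate block and without both libraries, and 9 without all 3. Over all rows 1485 were called in the main fit, and 2171, 1330 and 2632 in these 3 alternatives. The median in ECs against normoxia lung became -3.90 with quantile normalization and -4.30 to -3.88 when each library was left out, from -4.19. Scaling to equal totals moved the median of all rows in that comparison to -0.28, from -0.05, and the members' median to -4.43, with 51 members lower. No named gene that was called changed sign, but member medians near 0 did. In Ahr-KO SuHx against normoxia lung the median of 0.03 became -0.18 without Ahr-KO 2, -0.02 without normoxia 2, -0.23 without both or without all 3 libraries numbered 2, and -0.23 with secretory markers as a covariate. The cilium gene level, another covariate, was the mean log2 level of the members themselves, without Tekt3 and Dnah9. It takes out the members' shared level, so that their median comes near 0 by construction. With it the member median became -0.02, from 0.22, in Ahr-KO against WT SuHx lung and 0.01, from -0.18, in WT SuHx against normoxia lung. In that last comparison the 1 member called was Cfap36 with all 12 libraries in the fit and Tekt5 without the trend, in place of Dnah9. For the other alternatives the cause of these changes was not tested. The replicate block rests on column numbers, and whether these pair the libraries is not known. Correlations of deviations between libraries of the same number ran from -0.0402 to 0.216, and not every library correlated best with its own number. The 3 lung libraries numbered 2 correlated positively with each other (0.0934, 0.196 and 0.216). Their correlations with lung libraries of other groups and numbers ran from -0.2 to 0.00887. With 3 libraries a group and 1 signal unit worth about 1 read, members of low signal such as Dnah5 have wide errors.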
